A study of Eonycteris spelaea and Mus musculus with 51 samples.

Results

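The proteasome is the large protease that degrades ubiquitin-tagged proteins in the cytosol and nucleus. Its genes were followed here through lung, muscle and blood of the mouse, in control animals, after heat shock and after recovery. Members were all mouse genes whose symbol has the form Psma, Psmb, Psmc, Psmd, Psme, Psmf or Psmg followed by a number and at most 1 further letter, without the immunoproteasome genes Psmb8 and Psmb9. The rule found 47 genes among the 40840 of the mouse count table, and it used no measured value. RNA sequencing of total RNA gave 24 mouse libraries in 9 groups. Heat animals were taken directly after heat shock applied in vivo for 1 h, recovery animals 4 h after the end of the same heat shock, and control animals at baseline. Lung and muscle had 3 libraries per condition and blood had 2, numbered 1 and 2 after heat and recovery, and 1 and 3 in control. The labels give the species Mus musculus and no strain, age, sex or muscle name, and no unheated group was taken at the later times, so that heat, handling and elapsed time cannot be told apart. Nothing in the labels says whether libraries of a group came from separate animals, so p-values measure the spread between these libraries.

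A proteasome has a barrel-shaped core particle of alpha and beta rings, and 3 of its beta subunits, Psmb5, Psmb6 and Psmb7, carry the cutting sites. A regulatory particle caps the core: its base holds a ring of ATPases, encoded by Psmc genes, which unfold the substrate and thread it into the core, and its lid removes the ubiquitin chain. Other caps, the activators of the Psme family, open the core without ATP, and dedicated chaperones put core and base together. Cells that lose proteasome activity raise most subunit genes together through the transcription factor Nfe2l1, and muscle relies on the proteasome for the turnover of its contractile proteins.

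By role, the members comprised 8 alpha ring genes, 9 beta ring genes, 6 base ATPases, 3 other base subunits (Psmd1, Psmd2, Psmd4) and 8 lid subunits. There were 3 chaperones of base assembly (Psmd5, Psmd9, Psmd10) and 4 of core assembly (Psmg1 to Psmg4). The last 6 genes encode activators or an inhibitor (Psme1, Psme2, Psme2b, Psme3, Psme4, Psmf1). In each tissue 45 members had enough counts to be tested. Psma8, the alpha subunit of the testis proteasome, and Psmb11, the beta subunit of the thymus proteasome, did not, and in the fit of all 24 libraries only Psmb11 fell short. Library totals were 17.1 to 27.4 M counts in lung, 26.3 to 37.2 M in muscle and 32.5 to 54.5 M in blood. The members together took 0.172 to 0.197% of all counts in lung, 0.240 to 0.281% in muscle and 0.0871 to 0.115% in blood. The spread between libraries of a group, as the biological coefficient of variation, was 0.161 in lung, 0.338 in muscle and 0.263 in blood.

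Tissue markers matched the labels. In blood, 7 erythroid genes made up 51.7 to 68.4% of all counts. Muscle held 6 fast fibre genes with a summed 53844 to 105665 counts per M counted reads (CPM), and the lung held 6 epithelial genes with 14904 to 17318 CPM in sum. The heat shock itself was seen in 4 chaperone genes (Hspa1a, Hspa1b, Hsph1, Hspb1), whose summed level in lung was 4890, 1135 and 18405 CPM after heat and 223, 190 and 161 CPM in control. The 3 muscle libraries control 1, control 2 and recovery 1 had the most B cell markers, with sums of 114, 86.0 and 202 CPM, and the lowest fast fibre sums. The other 6 had 0.417 to 31.2 CPM of B cell markers, with control 3 the highest of them. Muscle results are therefore also given without the first 3. That leaves control 3 as the only control and so does not even out these markers between control and heat.

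Reads of Psme2 and Psme2b could not be assigned with certainty, because the coding sequences are near copies. The Psme2 gene, on chromosome 14, encodes the beta subunit of the interferon-inducible activator, and Psme2b is an intronless relative on chromosome 11. In the GENCODE M21 transcripts (build GRCm38) both coding sequences have 717 bases, with 5 mismatches and 99.3% identity, and the longest stretch without a mismatch has 311 bases. The window with the densest differences, bases 454 to 543 of each coding sequence, shows how little separates them; capitals mark the 3 bases that differ.
Psme2: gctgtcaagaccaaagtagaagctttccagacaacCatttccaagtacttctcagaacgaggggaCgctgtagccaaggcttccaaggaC
Psme2b: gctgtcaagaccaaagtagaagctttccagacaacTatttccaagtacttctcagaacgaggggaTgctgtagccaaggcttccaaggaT
The counts of Psme2b were 0.288 to 0.379 of those of Psme2 in lung, 0.0862 to 0.318 in muscle and 0.569 to 0.899 in blood. Values of these 2 genes are uncertain throughout.

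Levels in control tissues were compared first, as CPM with 1 scaling by trimmed mean of M values (TMM) over all 24 libraries, and per kilobase of transcript where genes are set side by side. Muscle carried the most proteasome mRNA on this scale, for nearly every structural subunit. Alpha ring genes had a median level of 36.3 CPM per kb in muscle, 13.2 in blood and 13.8 in lung. Beta ring genes had medians of 56.1 in muscle, 17.1 in blood and 15.9 in lung. Base ATPases had 33.2 in muscle, 9.85 in blood and 12.5 in lung, and lid subunits 34.8 in muscle, 10.8 in blood and 12.0 in lung. The chaperones of base assembly were low everywhere, with medians of 3.99 CPM per kb in muscle, 2.93 in blood and 3.01 in lung. Core assembly chaperones had medians of 4.95 in muscle, 4.65 in blood and 3.32 in lung. In lung the ATPases spanned 1.58-fold from Psmc5 to Psmc3, the lid 1.93-fold from Psmd12 to Psmd3, and the beta ring, apart from Psmb11, which was not tested, 2.07-fold from Psmb10 to Psmb4. The alpha ring ran from Psma8 at 0.108 CPM per kb to Psma7 at 20.7.

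**Figure D1:**
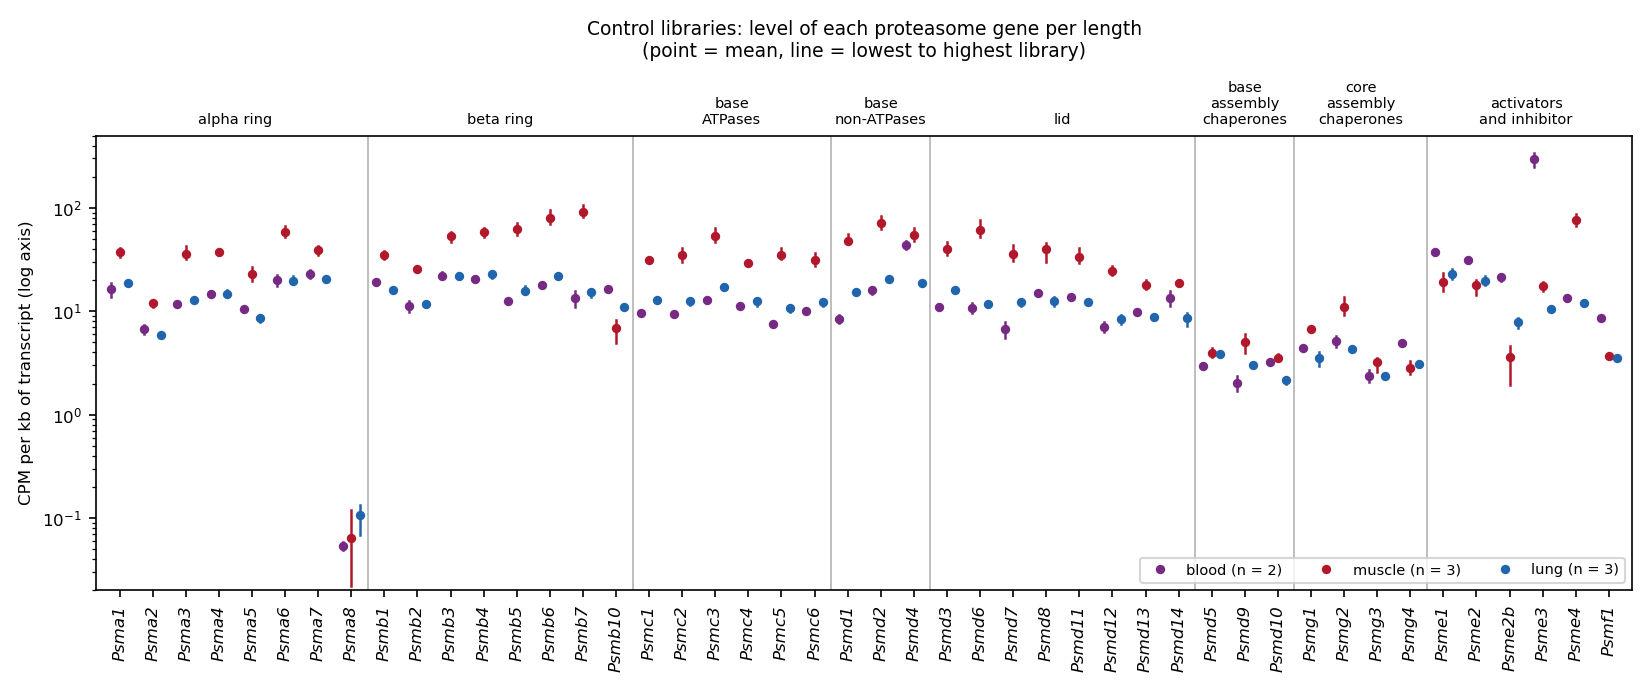
Level of each member in control blood, muscle and lung, in CPM per kilobase of transcript on a log axis, with vertical lines parting the roles; a point is the mean and its line runs from the lowest to the highest library (n = 2 in blood, 3 in muscle, 3 in lung; Psmb11 is not drawn). Psme3 in blood, at 338 and 249 CPM per kb, stands above every other member in these tissues, and muscle stands above lung in all 3 catalytic beta subunits.

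The genes at the top of the order differed between tissues. In lung the highest members were Psme1, with 20.7, 25.4 and 22.6 CPM per kb in its 3 libraries, and Psmb4, with 21.1, 24.6 and 23.0, so these neighbours overlapped. In muscle the order was led by Psmb7 (80.8, 85.6 and 105.5 CPM per kb), the subunit with trypsin-like activity, Psmb6 (70.5, 71.1 and 95.8), which has caspase-like activity, and Psme4 (74.5, 67.3 and 87.7), the large single-chain activator; their ranges overlapped. In blood Psme3, the nuclear activator that forms its own ring, had 338 and 249 CPM per kb. The next member in blood was Psmd4, a ubiquitin receptor of the base, with 48.2 and 39.9, below both Psme3 libraries. Psme3 made up 33.2% of the summed per-length level of all members in blood, 1.17% in muscle and 1.89% in lung. Among the 30078 genes with a transcript length, Psme3 ranked 78 in blood, 2476 in muscle and 3480 in lung.

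In muscle against lung, 39 of 46 members differed by edgeR's quasi-likelihood test at a Benjamini-Hochberg adjusted p under 0.05, with 37 higher and 2 lower in muscle. The background was high: 56% of the 22592 genes tested differed, with 28% higher. The median log2 difference was 1.30 over the members and -0.08 over all genes. Psme4 had the smallest p, with 496 ± 67.3 CPM in muscle and 78.3 ± 5.002 in lung (SD, n = 3 each; log2 difference 2.66, SE 0.18, edgeR adjusted p = 3.48e-10). All 3 catalytic beta subunits were higher in muscle: Psmb7 with 105 ± 15.2 CPM in muscle and 17.7 ± 1.58 in lung (log2 2.57), Psmb5, with chymotrypsin-like activity, with 56.0 ± 7.67 and 14.1 ± 1.41 (1.99), and Psmb6 by 1.86 on the log2 scale. The other beta genes named by p were Psmb4 at 1.36, Psmb3 at 1.29 and Psmb2 at 1.14. Psmb10, which takes the place of Psmb7 in the immunoproteasome, went the other way, with 8.31, 7.57 and 4.90 CPM per kb in muscle and 10.6, 11.5 and 11.1 in lung (log2 -0.67, edgeR adjusted p = 0.0222). The groups did not overlap for Psmb7 or for Psmb10.

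The rest of the structural genes were higher in muscle almost without exception. In the alpha ring 7 of 8 were higher (Psma6 by 1.56, Psma3 by 1.46, Psma5 by 1.42, Psma4 by 1.35 on the log2 scale), the one not called being the sparsely counted Psma8. All 6 ATPases were higher, between 1.22 for Psmc4 and 1.70 for Psmc5, with Psmc3 at 1.65, Psmc2 at 1.47, Psmc6 at 1.37 and Psmc1 at 1.28. So were the scaffold subunits Psmd2 (1.79) and Psmd1 (1.67), the ubiquitin receptor Psmd4 (1.54), and all 8 lid genes. Within the lid, Psmd6 had the largest difference, with 84.9 ± 18.3 CPM in muscle and 16.4 ± 0.709 in lung (log2 2.37), followed by Psmd8 (1.66), Psmd12 (1.55), Psmd7 (1.53), Psmd11 (1.47), Psmd3 (1.32), Psmd14 (1.13) and Psmd13 (1.00). Chaperones moved less: 2 of 3 for the base were called, with log2 differences of 0.06 to 0.73, and 2 of 4 for the core, with -0.14 to 1.34. Of the activators and the inhibitor, 2 were higher and Psme2b was lower (-1.10), while Psme1 (-0.24), Psme2 (-0.13) and Psmf1 (0.04) were not called.

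The counts depended on the scaling. With library size alone, which lowers the median of all genes in muscle against lung to -1.09, only 20 members were called, 13 higher and 7 lower, with a member median of 0.27, while 66.1% of all genes were called (11.3% higher, 54.8% lower). The difference of Psmd13 then turned negative, at -0.03, while Psme4 (1.63), Psmb7 (1.54), Psmd6 (1.33) and Psmb5 (0.96) were still called and higher. By role, that scaling left 0 of 8 alpha ring genes called, 3 beta ring genes higher and 1 lower, 2 of 6 ATPases, 3 of 3 other base subunits and 4 of 8 lid genes higher, and 1 activator higher against 4 lower. The related lists were counted in the same way. Of 9 tested proteasome genes outside the naming pattern all were higher in muscle by TMM, led by the adaptor Ecpas at 2.72; with library size alone 2 were higher and 2 lower. Of 7 genes listed for the Nfe2l1 pathway (Nfe2l1, Nfe2l2, Ddi2, Ngly1, Maff, Mafg, Mafk) 4 were higher and 3 lower. They ran from Nfe2l1 itself at 1.65 to Maff at -1.76 (1 higher and 3 lower with library size alone). Of 15 ubiquitin-handling genes 12 were higher and 1 lower, with Faf2 lowest at -0.46 (4 higher and 5 lower with library size alone). In a bulk tissue, fewer cells of a type and less RNA per cell cannot be told apart, for these and all later differences.

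In blood against lung, calls fell mainly outside the core particle. No alpha or beta ring gene was called by edgeR, 1 of the 16 tested having an unadjusted p under 0.05, while 5 of the 6 activator and inhibitor genes were higher in blood. In all, 17 of 46 members were called, 9 higher and 8 lower, against 60.7% of all genes (26.6% higher and 34.1% lower). Psme3 had 782 ± 167 CPM in blood (SD, n = 2) and 28.1 ± 0.821 in lung (n = 3), a log2 difference of 4.80 (SE 0.22, edgeR adjusted p = 1.77e-12). Psmf1, an inhibitor of the core in vitro, had 33.1 ± 2.97 CPM in blood and 13.5 ± 0.454 in lung (log2 1.29), and Psmd4 had 58.7 ± 7.82 in blood and 24.8 ± 1.04 in lung (1.24). The other members higher in blood were Psme2b (1.45), Psme1 (0.72), Psme2 (0.67), Psmg4 (0.67), the lid deubiquitinase Psmd14 (0.64) and Psmd10 (0.58). Lower in blood were Psmd7 (-0.88), the partner of Psmd14, Psmd1 (-0.85), Psmd9 (-0.57), Psmd3 (-0.56), Psmc5 (-0.50), Psmc1 (-0.42), Psmc3 (-0.39) and Psmd5 (-0.39).

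The direction of these smaller differences depended on the scaling. With library size alone, the median of all genes in blood against lung was -1.72, 43 members were called, against 73.7% of all genes (4.12% higher, 69.6% lower), and Psme3, at 3.19, was the only member called higher in blood. All 8 tested beta ring genes and 7 of 8 alpha ring genes were then lower. The differences of Psmf1 (-0.30), Psmd4 (-0.36), Psme1 (-0.86), Psme2 (-0.91), Psme2b (-0.13), Psmd14 (-0.92), Psmd10 (-0.998) and Psmg4 (-0.91) were then negative.

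In blood against muscle, 41 of 46 members differed, 7 higher and 34 lower in blood, against 67% of all genes (28.4% higher, 38.6% lower). The median was -1.29 over the members and -0.25 over all genes. Psme3 was again highest, at a log2 difference of 4.07 (edgeR adjusted p = 9.14e-12), followed by Psme2b at 2.54, Psmf1 at 1.25, Psmb10 at 1.23, Psme1 at 0.97, Psmg4 at 0.81 and Psme2 at 0.80. The largest differences the other way were Psmb7 (-2.75), Psme4 (-2.52), Psmd1 (-2.51), Psmd6 (-2.50) and Psmb5 (-2.30). All 6 ATPases (-2.20 to -1.35) and all 8 lid genes (-2.50 to -0.49) were lower in blood, and Psmd4 at -0.30 was not called. With library size alone 3 members were higher and 37 lower, with a member median of -1.85, against 59.1% of all genes called (13.9% higher, 45.2% lower).

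In lung after heat, 1 of the 45 members rose and none fell by edgeR, against 5.85% of the 19438 genes tested (3.14% higher, 2.72% lower). The gene was Psmd11, the lid subunit that clamps the lid onto the core (build GRCm38, chr11:80428615-80473248, plus strand). Its level was 79.8, 75.3 and 89.8 CPM in heat lungs, against 65.7, 66.1 and 64.2 CPM in control lungs. The groups did not overlap, and the log2 change was 0.32 (SE 0.085, edgeR adjusted p = 0.0486). That p lies close to the threshold: leaving out libraries one at a time gave 0.0236 to 0.166, and only without heat 2 was the gene still called. The next members by p were not called by edgeR. Psmg2, which pairs with Psmg1 in core assembly, had 6.86, 5.87 and 5.13 CPM in heat lungs and 8.02, 9.17 and 8.72 in control lungs, without overlap (log2 -0.53, adjusted p = 0.0661 by edgeR). DESeq2 called it lower (log2 -0.52, DESeq2 adjusted p = 0.0375) and called 2 members in all, 1 higher and 1 lower, against 11% of all genes (6.27% higher, 4.72% lower). Psme2b had 10.1, 9.32 and 9.81 CPM in heat lungs and 10.8, 13.6 and 12.3 in control lungs (log2 -0.33, edgeR adjusted p = 0.129).

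By role, the lung medians after heat were small. The lid had a median log2 change of 0.13, the non-ATPase base subunits 0.09, the ATPases 0.05, the beta ring 0.04 (Psmb10 -0.22 to Psmb6 0.19), the alpha ring 0.01 and the activators with the inhibitor -0.13. Over all members the median was 0.05 with 30 of 45 positive, while all genes had a median of -0.01. With library size alone these medians were -0.04 for the members, with 17 positive, and -0.09 for all genes; the alpha (-0.07) and beta ring (-0.04) and the ATPases (-0.04) were then negative, and the lid was at 0.04. Groups without overlap were seen for 6 members, 4 higher and 2 lower (13.3%), against 26.9% of all genes. B cell markers moved in the same libraries: the 5 genes summed to 78.8, 72.9 and 78.4 CPM in heat lungs and 134, 141 and 130 in control lungs, and 3 of 5 fell. T and NK cell markers summed to 28.0, 25.8 and 23.1 CPM in heat lungs and 37.8, 41.6 and 40.5 in control lungs, none of the 7 genes at 0, and 3 of 7 fell. Their part in the values of Psme2b and Psmb10 was not tested.

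**Figure D2:**
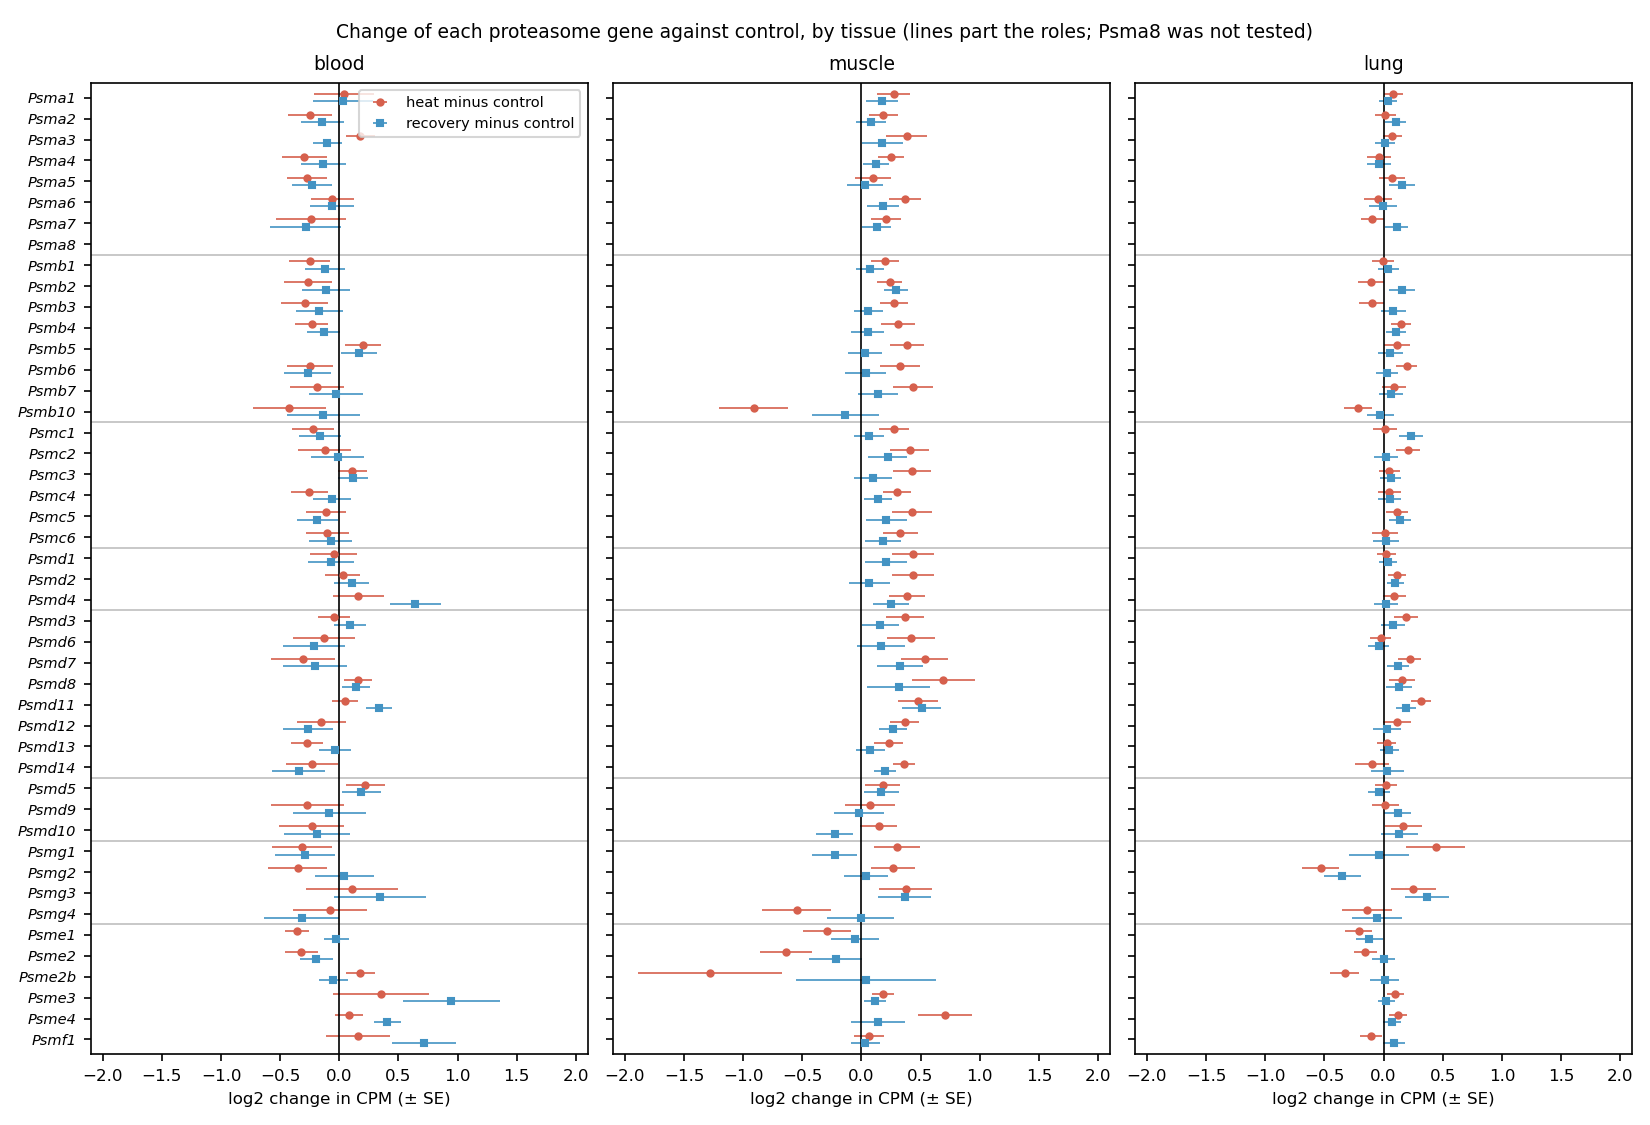
Log2 change against control of each member tested, after heat (circles) and after recovery (squares), with its SE as a horizontal line; panels are blood, muscle and lung, and grey lines part the roles. Only Psmd11 in lung after heat, at 0.32, was called by edgeR, and in muscle after heat 40 of 45 members lie right of 0.

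Of the surrounding pathway, 0 of 9 proteasome genes outside the pattern, 1 of 7 Nfe2l1 pathway genes and 1 of 15 ubiquitin-handling genes rose in lung after heat. The ubiquitin-handling gene was Ubqln1, a shuttle that brings tagged proteins to the proteasome (log2 0.61, edgeR adjusted p = 0.00886). The Nfe2l1 pathway list also holds Nfe2l2 and the Maf genes Maff, Mafg and Mafk. Its median was 0.38, with Ngly1 lowest at -0.13 and Maff highest at 1.07. Nfe2l1 itself was at 0.06.

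In lung after recovery against control, no member was called by edgeR or DESeq2, and 3 had an unadjusted p under 0.05, with 0.0309% of all genes called (0.0206% higher, 0.0103% lower). Psmd11 had 68.7, 76.0 and 79.4 CPM in recovery lungs, each above the 3 control values (log2 0.19, edgeR adjusted p = 0.674). Psmc1, an ATPase, was at 0.23 with 39.6, 46.0 and 49.8 CPM in recovery lungs and 36.4, 41.4 and 37.6 in control lungs, which overlapped. Psmg2 was at -0.35, with 7.03, 6.12 and 7.22 CPM in recovery lungs, all below control. Over the members the median was 0.05 with 36 positive. Comparisons of heat and of recovery with control share the control libraries.

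In lung at recovery against heat, again 0 members were called by either tool, 2 having an unadjusted p under 0.05, although 11.3% of all genes were called (5.46% higher, 5.84% lower). Psme2b (0.34, edgeR adjusted p = 0.0946), Psmb2 (0.26) and Psmc1 (0.22) had the smallest p. The member median was 0.01. Around the members, the proteasome import factor Ipo9 fell (-0.40), as did 3 of 7 Nfe2l1 pathway genes, with Maff at -0.91 the lowest value, and Ubqln1 (-0.79).

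**Figure D3:**
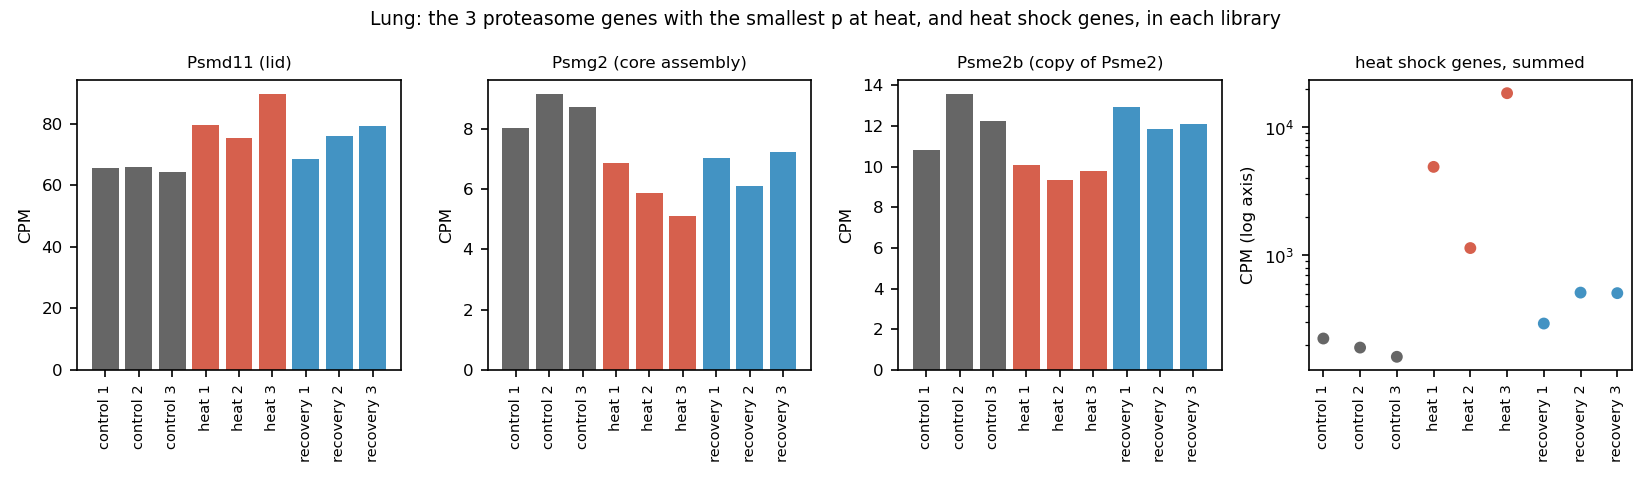
Bars give the level in each lung library, in CPM, of Psmd11, Psmg2 and Psme2b, and points give the summed CPM of the 4 heat shock genes on a log axis, by condition from control through heat to recovery (n = 3 each). The 3 heat values of Psmd11, between 75.3 and 89.8, lie above the 3 control values between 64.2 and 66.1.

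In muscle after heat, 0 of 45 members were called by edgeR, against 0.428% of the 17746 genes tested (0.293% higher, 0.135% lower), although 40 of 45 had a positive change. DESeq2 called 5, 4 higher and 1 lower, while it called 14.7% of all genes (6.43% higher, 8.26% lower). In all, 22 members had an unadjusted edgeR p under 0.05 (20 positive, 2 negative), against 30% of all genes. The median log2 change was 0.30, against -0.05 for all genes. In 33 members (73.3%) heat muscle did not overlap control muscle, with 29 higher and 4 lower, against 37.7% of all genes. All 17 genes of the regulatory particle had positive values, with medians of 0.37 for the ATPases, 0.43 for Psmd1, Psmd2 and Psmd4, and 0.39 for the lid (Psmd13 0.23 to Psmd8 0.69). The alpha ring had a median of 0.25 and the beta ring of 0.29, with Psmb10 as its only negative gene. Core assembly chaperones had 0.28, base assembly chaperones 0.15, and the activators with the inhibitor -0.12, between Psme2b at -1.28 and Psme4 at 0.71.

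The members with the smallest p show the pattern library by library. Psmd14, which cuts the ubiquitin chain off the substrate, had 30.9, 32.0 and 30.0 CPM in heat muscle and 23.9, 24.1 and 24.2 in control muscle (log2 0.36, edgeR adjusted p = 0.0877), with little spread within either group. Psme4 had 825, 648 and 541 CPM in heat muscle and 408, 361 and 465 in control muscle, without overlap (log2 0.71, edgeR adjusted p = 0.113). Psmb10 had 3.95, 3.60 and 4.50 CPM in heat muscle and 9.20, 8.21 and 5.24 in control muscle, also without overlap (log2 -0.91, edgeR adjusted p = 0.111). The ratio of Psmb10 to the subunit it replaces, Psmb7, per kilobase, was 0.0265, 0.0282 and 0.0365 in heat muscle and 0.103, 0.0884 and 0.0464 in control muscle. Psme1 and Psme2, interferon-inducible as Psmb10 is, were at -0.29 and -0.64.

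**Figure D4:**
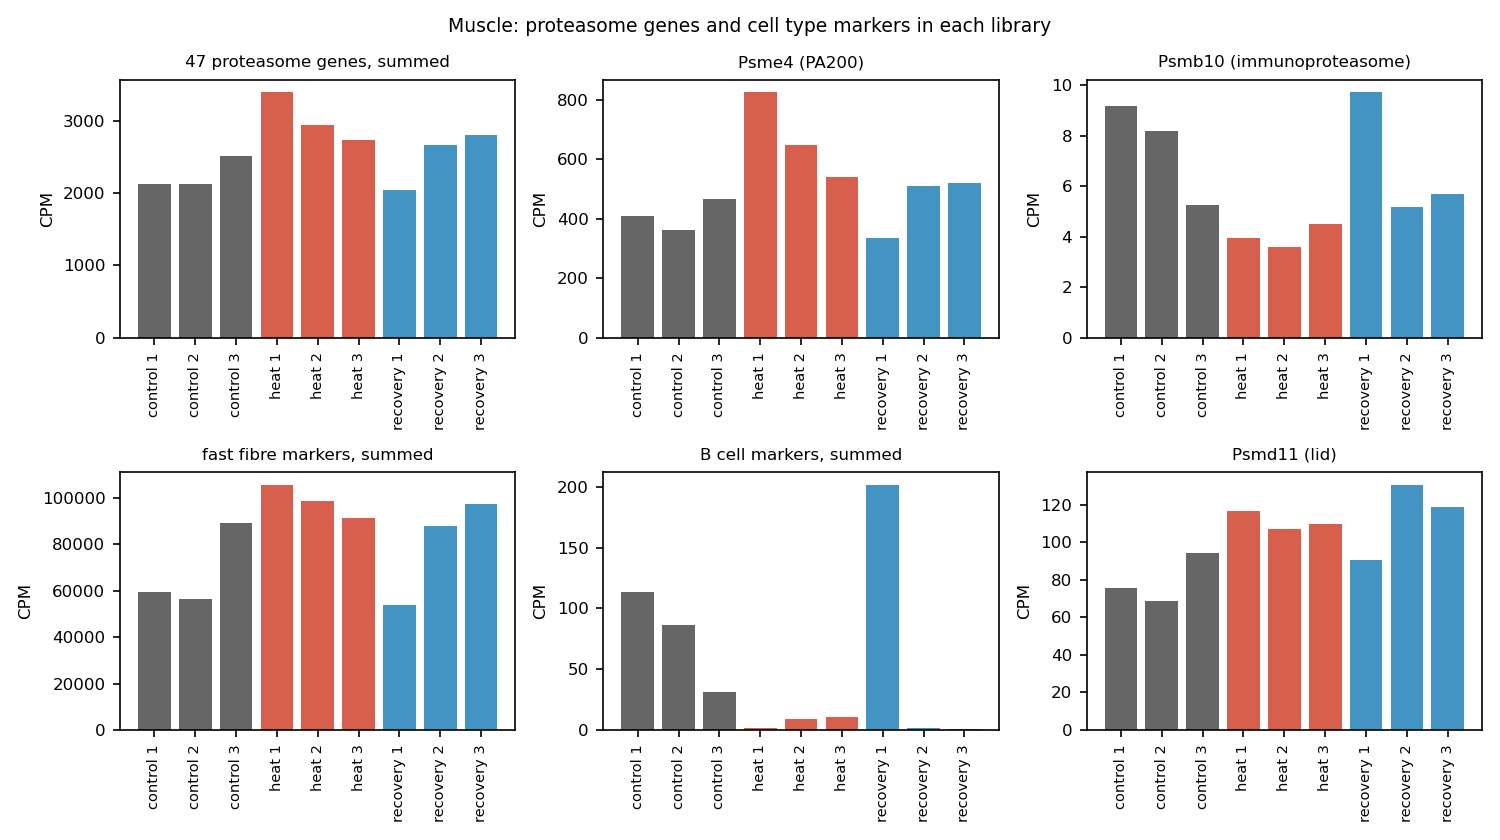
Bars give, in CPM for each muscle library by condition from control through heat to recovery (n = 3 each), the sum of the 47 members, Psme4, Psmb10, Psmd11, and the sums of fast fibre and of B cell markers. The 3 libraries with the highest B cell bars, control 1, control 2 and recovery 1, are also those with the lowest member and fast fibre sums on this TMM scale. As shares of total counts their fast fibre sums are still the lowest. Their member shares, 0.258, 0.264 and 0.249%, are not, in a muscle range of 0.240 to 0.281%.

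On the TMM scale, which divides all sums of a library by the same factor, these changes ran along with cell type markers. The summed level of all members was 3397, 2941 and 2740 CPM in heat muscle and 2124, 2121 and 2512 in control muscle. The fast fibre sum, with no gene at 0, was 105665, 98422 and 91451 CPM in heat muscle and 59418, 56360 and 89256 in control muscle. B cell markers summed to 1.42, 9.14 and 11.04 CPM in heat muscle, with 1 of 5 at 0 in heat 1, and 114, 86.0 and 31.2 in control muscle with none at 0. Adipocyte markers summed to 14.0, 30.8 and 226 CPM in heat muscle and 671, 973 and 179 in control muscle. Per 1000 fast fibre reads there were 32.1, 29.9 and 30.0 member reads in heat muscle and 35.7, 37.6 and 28.1 in control muscle, so on that scale heat lay below the 2 control libraries rich in B cell markers and above the third. The part of cell makeup in the changes was not tested.

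Psme4 was counted against the other members as well. It took 24.3, 22.02 and 19.7% of the member counts in heat muscle and 19.2, 17.04 and 18.5% in control muscle, without overlap. Per 1000 fast fibre reads it had 7.81, 6.58 and 5.91 in heat muscle and 6.86, 6.41 and 5.20 in control muscle, which overlapped.

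Without control 1, control 2 and recovery 1 (a choice made after seeing the data, leaving 1 control library whose spread is assumed to be that of the other groups) 0 members were called by edgeR, and the member median was 0.18 with 38 positive, with 0.22 for the lid, 0.20 for the ATPases, 0.18 for the beta ring, 0.14 for the alpha ring and, with its sign turned, 0.05 for the activators and inhibitor. Psmd14 was then at 0.35, Psme4 at 0.52 and Psmb10 at -0.39, closer to 0 than with all libraries. With library size alone the direction turned: the member median was -0.07 with 14 positive, the median of all genes being -0.43, and Psmd14 was at -0.02. By role the alpha (-0.13) and beta ring (-0.09) were then negative, and the lid was at 0.03. Leaving out recovery 1 alone, a library of neither group, brought 8 calls, 6 higher and 2 lower, Psmd14, Psme4 and Psmb10 among them, while 15% of all genes were then called (4.89% higher, 10.1% lower).

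The pathway lists had the same sign in muscle after heat, by TMM: 9 of 9 proteasome genes outside the pattern, 7 of 7 Nfe2l1 pathway genes and 13 of 15 ubiquitin-handling genes were positive, with none called by edgeR (1, 2 and 6 genes with an unadjusted p under 0.05). Their medians were 0.24, 0.37 and 0.37 in that order, and the highest were Zfand5 at 0.62, Maff at 0.82 and Ubqln4 at 0.54. With library size alone 3 of 9, 4 of 7 and 8 of 15 were positive.

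In muscle after recovery against control, 0 members were called by edgeR or DESeq2, with 2 at an unadjusted p under 0.05 and 0.0676% of all genes called, all of them higher. Libraries of the groups did not overlap in 4 members (8.89%), against 9.52% of all genes. Psmd11 had 90.7, 131 and 119 CPM in recovery muscle and 75.9, 68.8 and 94.5 in control muscle, which overlapped through recovery 1 and control 3 (log2 0.51, edgeR adjusted p = 0.773). Psmb2 was at 0.29, with 19.7, 23.7 and 24.2 CPM in recovery muscle and 18.3, 18.4 and 18.5 in control muscle, and the lid subunit Psmd12 was at 0.27. The member median was 0.12 with 38 positive, -0.04 with library size alone, and 0.09 with 31 positive without control 1, control 2 and recovery 1. The 4 heat shock chaperones were still at 1887, 6223 and 4807 CPM in sum in recovery muscle, and 3 of 4 were called against control.

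In muscle at recovery against heat, 0 members were called by either tool, 5 having an unadjusted p under 0.05, and 0.468% of all genes were called (0.282% higher, 0.186% lower). The median was -0.16, with 7 of 45 positive; it was 0.05 with library size alone, and -0.07 with 11 positive without control 1, control 2 and recovery 1. Psmg1 had 3.69, 6.27 and 4.92 CPM in recovery muscle and 7.17, 6.99 and 7.32 in heat muscle, without overlap (log2 -0.53, edgeR adjusted p = 0.198). Psmb10 was at 0.77 (0.43 without the 3 libraries) and Psmb5 at -0.35. Recovery 1 had 9.73 CPM of Psmb10, the other recovery libraries 5.19 and 5.70.

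In blood after heat, 0 members were called by edgeR or DESeq2, as were 0% of the 15869 genes tested by edgeR; 1 member had an unadjusted p under 0.05. That member was Psme1, the alpha subunit of the interferon-inducible activator, with 16.3 and 17.8 CPM in heat blood and 21.5 and 22.2 in control blood (log2 -0.36, edgeR adjusted p = 0.215). Psme2 was at -0.32 and Psmd13, a lid subunit, at -0.27. The member median was -0.15 with 14 of 45 positive, against 0.02 for all genes. In the core particle the medians were -0.24 for the alpha and -0.25 for the beta ring. With library size alone they were -0.31 and -0.38, and the median of all genes was -0.17. With 2 libraries per group, 13 members (28.9%) did not overlap, 4 higher and 9 lower, against 43.6% of all genes.

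In blood after recovery against control, 0 members were again called by either tool, 4 had an unadjusted p under 0.05, and 0% of all genes were called. Psme4 had 57.1 and 61.9 CPM in recovery blood and 44.9 in each control library (log2 0.41, edgeR adjusted p = 0.544). Psmd11 had 24.7 and 26.4 CPM in recovery blood and 21.4 and 19.01 in control blood (0.34), and Psmd4 had 41.5 and 53.9 in recovery blood and 33.8 and 27.3 in control blood (0.64). None of these 3 overlapped, as in 21 members (46.7%) and 52% of all genes, but with library size alone, which shifts the median of all genes to -0.64, Psme4 was at -0.22 and Psmd11 at -0.28. Over the members the median was -0.07, with 14 positive, and -0.71 with library size alone.

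Psme3, the leading member of blood, stood high or low in the same heat libraries as red cell transcripts. It had 474 and 341 CPM in control blood, 714 and 328 in heat blood and 700 and 870 in recovery blood, on the scale of blood alone. Its log2 change was 0.36 (SE 0.41) for heat and 0.95 (SE 0.41, edgeR adjusted p = 0.544) for recovery, neither called. The 7 erythroid genes, none at 0, took 61.4 and 55.0% of counts in control blood, 68.4 and 51.7% in heat blood and 65.8 and 67.5% in recovery blood. Heat 1 thus stood high in both and heat 2 low in both. Per 1000 erythroid reads, Psme3 had 0.830 and 0.854 in control blood, 0.791 and 0.889 in heat blood and 0.912 and 0.952 in recovery blood. These ratios use raw counts, whereas its CPM carry TMM factors from 0.739 in recovery 2 to 1.40 in heat 2. The widths of the ranges therefore cannot be compared. It took 49.8 and 40.7% of all member counts in control blood, 62.1 and 39.9% in heat blood and 58.5 and 61.9% in recovery blood. Psmf1 had 18.5 and 15.9 CPM in control blood, 23.97 and 14.4 in heat blood and 24.4 and 32.1 in recovery blood. Its heat 1 value lay above heat 2 on this TMM scale, but not as a share of total counts (989 of 54.5 M and 657 of 32.5 M). Per 1000 erythroid reads, Psmf1 had 0.0265 in heat 1 and 0.0392 in heat 2. The scaffold Psmd1 had 10.8 and 15.6 CPM in heat blood and 12.6 and 14.7 in control blood, and so was lower in heat 1 than in heat 2. In recovery blood Psmd1 had 12.5 and 13.5 CPM. Monocyte markers summed to 541 CPM in heat 1 and 2385 CPM in heat 2, the only blood libraries for which they are set beside Psmd1 here. Such a pair of libraries cannot show whether Psmd1 follows these markers. How far red cell content accounts for these values was not tested.

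**Figure D5:**
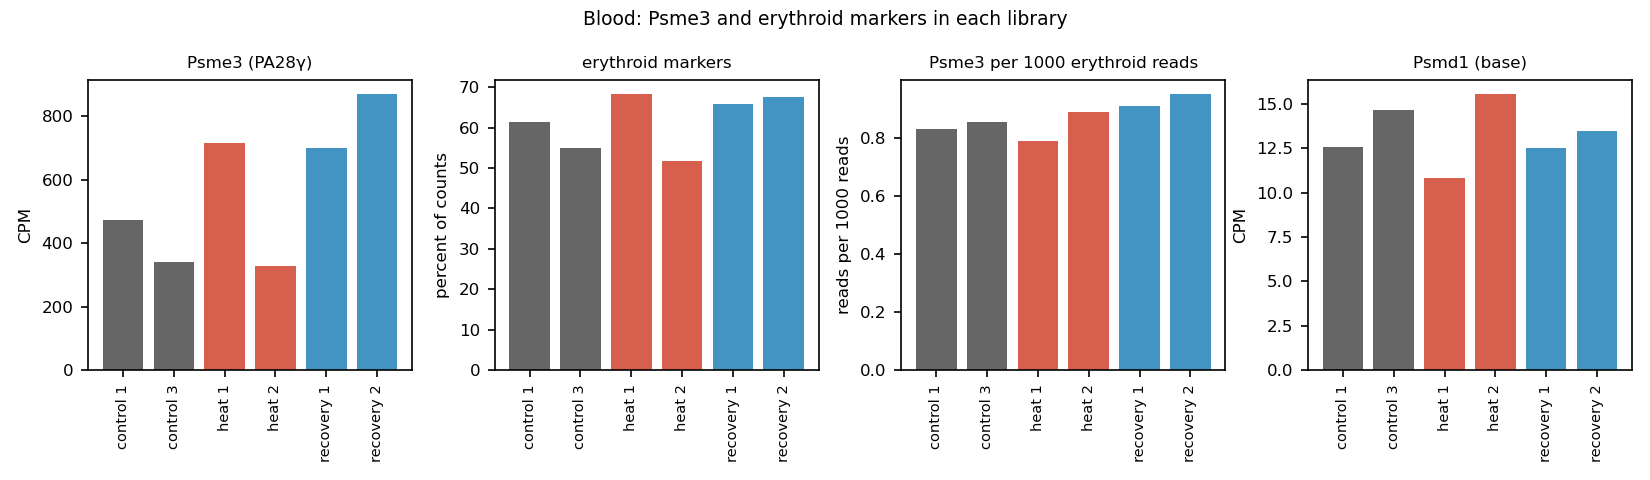
Bars give, for each blood library by condition from control through heat to recovery (n = 2 each), Psme3 and Psmd1 in CPM, the percentage of counts from 7 erythroid genes, and Psme3 reads per 1000 erythroid reads. Heat 1, with 714 CPM of Psme3, and heat 2, with 328 CPM, have the highest and the lowest erythroid share, 68.4 and 51.7%. Psme3 itself is highest in recovery 2, at 870 CPM, where the erythroid share is 67.5%.

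In blood at recovery against heat, 3.99% of all genes (1.29% higher, 2.7% lower) but 0 members were called by edgeR, and DESeq2 called none; 3 members had an unadjusted edgeR p under 0.05. These were Psme1 (0.33, with 21.7 and 21.3 CPM in recovery blood and 16.3 and 17.8 in heat blood), Psme4 (0.32) and Psmd11 (0.29), whose values were -0.12, -0.09 and -0.15 with library size alone. The Ubqln1 shuttle fell in blood as well (log2 -1.13, edgeR adjusted p = 0.0462), 1 of 15 ubiquitin-handling genes.

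Psmd11 was among the members with the smallest p in 5 of the 9 comparisons within tissues. Its log2 change after heat was 0.32 in lung, 0.48 in muscle (edgeR adjusted p = 0.122) and 0.05 in blood. After recovery it was 0.19 in lung, 0.51 in muscle and 0.34 in blood. With library size alone the blood value after recovery turned to -0.28, and the lung value after heat was 0.23. Only the change in lung after heat was called, and the values of each tissue share its control libraries.

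Whether the responses differed between tissues was tested as the difference of the changes in 1 fit of all 24 libraries. No member was called in any of the 4 tests by edgeR or DESeq2, nor were more than 0.0575% of all genes by edgeR; 3, 0, 0 and 3 members had an unadjusted p under 0.05, in the order in which the tests follow. For the heat response of muscle minus that of lung (0.0443% of genes called, with 0.0221% in each direction), the smallest p belonged to Psmg2 (0.82, edgeR adjusted p = 0.164), Psme4 (0.61) and Psmd14 (0.48), and the member median was 0.25 against -0.10 for all genes. Without muscle control 3, Psmg2 was called, at 1.00 (edgeR adjusted p = 0.0461), as were 2.41% of all genes (0.426% higher, 1.98% lower). For the heat response of blood minus that of lung (0.0575%, with 0.0354% higher), Psmg1 was at -0.79, Psmb4 at -0.41 and Psmd13 at -0.33. For the recovery response of muscle minus that of lung (0.0398%), Psmd11 was at 0.32, Psmd10 at -0.36 and Psmg2 at 0.39. For that of blood minus that of lung (0.0221%), Psme3 was at 0.89 (edgeR adjusted p = 0.363), Psmf1 at 0.59 and Psmd4 at 0.59. A change called in lung alone is thus not shown to differ from that in muscle or blood. Such tests had little power for genes at large: on simulated data, the heat response of muscle minus that of lung was called for 8% of genes with a 2-fold difference. The simulated spread followed the trend over all genes, and power for the members themselves was not simulated. Among the members the SE of this difference ran from 0.16 for Psmd13 to 1.42 for Psma8, with Psmd14 at 0.23.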

How the data were processed

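Mouse blood, lung and muscle were profiled by RNA sequencing of TRIzol total RNA with a directional NEBNext kit, per the labels' protocols. The authors deposited raw counts per gene, unnormalized, from reads aligned with STAR 2.7 to GRCm39 and counted with featureCounts, per the submitters' processing notes; the sources used here do not state the strand setting, so reads of overlapping genes cannot be told apart (Psmb7 shares exon bases with Nek6, Psmd1 with Htr2b, Psmc3 with Slc39a13, Psmd13 with Sirt3). Bat samples were not analysed here. Members and gene lists were chosen with earlier results of these data known.

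Counts were analysed with edgeR 4.0.16 (limma 3.58.1, R 4.3.3): filterByExpr (minimum count 10, minimum total 15), TMM, and the robust quasi-likelihood test, with Benjamini-Hochberg adjustment across every gene tested (19438 in lung, 17746 in muscle, 15869 in blood, 22592 jointly). Calls required an adjusted p under 0.05. Each tissue was fitted alone over its 3 conditions; tissue contrasts and differences of responses came from a joint fit of 24 libraries. Levels are TMM-scaled CPM as mean ± SD; per-kilobase levels used the principal transcript of GENCODE M21 (GRCm38), a different build from that of the counts. Named members are those called, up to 25 by smallest p, or at least the 3 with the smallest p; others are named as range ends, by role, or after their values were seen (Psme3, Psmf1, Psmd1 and Psme1 in blood, Psme4 shares, Psmd11 across tissues). Library totals, 17.1 to 54.5 M, set the precision. No pair of libraries within a group was a copy (squared count differences at least 10.3 times counting error). On simulated data, with genes drawn from the whole table and spread set by the trend over all genes, power was estimated. The lung fit called 84% of genes changed 2-fold, the muscle fit 29% and the blood fit 25%. The joint fit called 43% for control muscle against lung and 8% for the heat response of muscle minus that of lung. Alternatives were DESeq2 1.42.0 (no independent filtering), median-of-ratios scaling, no filter, library size alone, a replicate block, the 2 compared groups alone, and each library left out.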

Additional observations from a re-analysis of the deposited data

How the results depend on the processing

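The count of members called in lung after heat, 1, was 2 with DESeq2, 0 with only the 2 groups compared in the fit, and 0 to 1 when each library was left out in turn. In the same kind of run the count was 0 to 8 for muscle after heat (8 without recovery 1), where DESeq2 gave 5; 0 to 1 for blood after heat (1 without heat 2); 0 to 2 for blood at recovery against heat (2 without heat 1, 1 without heat 2); and 0 to 1 for the heat response of muscle minus lung (1 without muscle control 3). All genes were called at 4.46% in that run of blood after heat, and at 11.4% and 7.77% in those of blood at recovery against heat. Where 1 library remained in a group, it was assumed to vary like the others. The other 5 comparisons of recovery and 3 differences of responses gave 0 in each such run. For control tissues these runs gave 36 to 40 members in muscle against lung (39 with all libraries), 11 to 15 in blood against lung (17; 11 without blood control 1) and 39 to 41 in blood against muscle (41). Library size alone in place of TMM, tried after seeing the data, gave 1 member in lung at recovery against heat, 20 in muscle against lung and 43 in blood against lung. It also turned the sign of 15 single changes: Psmd14 in muscle after heat (-0.019); Psme4 (-0.22) and Psmd11 (-0.28) in blood after recovery; Psme1 (-0.12), Psme4 (-0.091) and Psmd11 (-0.15) in blood at recovery against heat; Psmd13 in muscle against lung (-0.030); and, in blood against lung, Psmf1 (-0.30), Psmd4 (-0.36), Psme1 (-0.86), Psme2 (-0.91), Psme2b (-0.13), Psmd14 (-0.92), Psmd10 (-0.998) and Psmg4 (-0.91). Replicate numbers did not meet the threshold set for pairing, every pair above 0.1: of same-numbered libraries within a tissue, 1 of 9 pairs in lung, 2 of 9 in muscle and 1 of 4 in blood correlated above 0.1 in their deviations. Between tissues of a condition, 6 of 21 same-numbered pairs did, against 1 of 42 with different numbers. A replicate block across tissues, added after seeing the data, gave 39, 15 and 41 members in muscle against lung, blood against lung and blood against muscle, and ended the calls of Psmd5 and Psmd9 in blood against lung (edgeR adjusted p = 0.0550 and 0.120). With the number as a replicate block, lung after heat had 0 members and blood against lung 10. For Psmd11 in lung after heat the edgeR adjusted p was 0.075 with the block, 0.103 with only the 2 groups and 0.0916 with library size alone; Psmg2 there reached 0.0375 with DESeq2 and 0.0470 with library size alone. Apart from the changes above, the causes of which were not tested, counts of members stayed within 1.5 times the reported ones. Simulated 2-fold changes were called in 29% of muscle and 25% of blood genes. Smaller changes of genes with the simulated spread could thus not be detected dependably in those tissues. The members' own spread was not simulated.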
